A study of Sus scrofa domesticus with 34 samples.

Results

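Microglia, the resident macrophages of the brain, and the C1q molecule that they secrete were followed through 9 genes in 34 pig 3′ mRNA libraries. The genes were taken by symbol through their Ensembl identifiers, 1 identifier each, and all 9 were found among the 31907 genes of the count files. They are P2RY12 (ENSSSCG00000011713), CX3CR1 (ENSSSCG00000024024), AIF1 (ENSSSCG00000032341), CSF1R (ENSSSCG00000014441), TREM2 (ENSSSCG00000039270), TYROBP (ENSSSCG00000002919), C1QA (ENSSSCG00000003524), C1QB (ENSSSCG00000033512) and C1QC (ENSSSCG00000038706). P2RY12 and CX3CR1 were treated as the brain-resident pair, and the other 7 as genes that macrophages of many tissues express.

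Microglia survive in adult brain tissue through signals from CSF1R, sense nucleotides leaking from damaged cells through P2RY12, and receive signals from neurons through CX3CR1. TREM2 recognises lipids and signals through its adaptor TYROBP. C1q is built from the chains encoded by C1QA, C1QB and C1QC, binds immune complexes and debris to start the classical complement cascade, and in the mouse brain tags synapses that microglia then remove. In most other tissues the same 7 general genes are expressed by tissue macrophages.

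The pigs were fed 1 of 4 diets, and each library is 1 animal by the count of individuals in the series. The 25(OH)D diet (n = 8) supplied 25-hydroxyvitamin D alone, at 2000 IU per kg of grower feed and 1500 IU per kg of finisher feed. The combination diet (n = 8) supplied 2000 and later 1500 IU of cholecalciferol, and 1000 IU of 25(OH)D throughout. The increased cholecalciferol diet (n = 10) held 3000 and then 2500 IU, and the standard cholecalciferol diet (n = 8), which served as the control, held 2000 and then 1500 IU. Each group had 4 libraries labelled female and 4 labelled castrated male, apart from 6 and 4 with increased cholecalciferol. Breed and age are not used here. 25(OH)D is the hydroxylated form of vitamin D that the liver makes from cholecalciferol.

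The tissue label of all libraries is muscle, and the transcripts go against it in part. MBP, of myelin, averaged 3361 CPM (gene counts per 1000000 gene counts of the library) and GFAP, of astrocytes, 1216 CPM, beside 1645 CPM of ACTA1, the skeletal muscle actin (n = 34). Total gene counts ran from 1.34 to 30.4 M (1 M is 1000000 counts) with a median of 6.67 M. They stepped with the numbering of the files, with 16.8 to 30.4 M in numbers 25 to 29 and 1.34 to 2.69 M in numbers 30 to 34, which hold 4 combination libraries and 1 25(OH)D library. In that last run the 4 libraries labelled female lay above all other females in the sum of 11 genes that were lower in females. These genes summed to 96.4 to 178 CPM there, to 8.72 to 73.0 CPM in the other 14 females, and to 96.5 to 422 CPM in the 16 castrated males. The means were 140 ± 34.3, 40.6 ± 16.0 and 240 ± 84.7 CPM (SD), so the 4 lay in between. The 11 genes were picked by a test on the same labels, and whether a label is wrong was not tested.

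All 9 genes were detected in every library, and the 3 C1q chains did not share a level. C1QC averaged 39.4 ± 14.9 CPM (SD, n = 34), C1QA 29.3 ± 10.7 CPM and C1QB 14.4 ± 5.62 CPM. AIF1, which encodes the actin-bundling protein IBA1 used to stain microglia, averaged 21.6 ± 7.09 CPM. TYROBP averaged 20.7 ± 6.39 CPM and its partner TREM2 17.7 ± 5.63 CPM. CSF1R averaged 18.6 ± 8.42 CPM. In the resident pair, CX3CR1, the receptor of fractalkine, averaged 18.5 ± 10.2 CPM and P2RY12 14.3 ± 5.33 CPM. A 3′ kit counts a transcript near its end, so CPM do not grow with transcript length, but they depend on how well the annotation covers that end.

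The order of these levels was firm at the top and loose below it. C1QC ranked first of the 9 genes in 30 of 34 libraries, and in the other 4 C1QA did. C1QC lay above C1QA by a log2 ratio of 0.43 ± 0.35 (SD over 34 libraries), and C1QA lay above AIF1 in 27 libraries by 0.42 ± 0.40. Below AIF1, each neighbour in the order differed by less than the SD of the ratio. The mean log2 ratio was 0.04 ± 0.39 for AIF1 over TYROBP, 0.23 ± 0.49 for TYROBP over CSF1R and 0.08 ± 0.72 for CSF1R over CX3CR1. It was -0.08 ± 0.66 for CX3CR1 over TREM2, 0.34 ± 0.52 for TREM2 over C1QB and 0.03 ± 0.53 for C1QB over P2RY12. P2RY12 was last in 13 libraries, C1QB in 9 and CX3CR1 in 5.

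Libraries differed from each other by more than counting error allows. The coefficient of variation over 34 libraries was lowest for TYROBP, at 30.8%, and highest for CX3CR1, at 55.0%, where counting error alone would give 9.83% and 10.4%. Counts per gene and library ran from 10, for C1QB in 25(OH)D replicate 8, to 942, for C1QC in combination replicate 4. The biological coefficient of variation, which is the spread between libraries beyond counting error that edgeR fitted within diet and sex, was 30.5% for TYROBP and 51.8% for CX3CR1. This lay at the 47.0th percentile of the 13974 tested genes for TYROBP and at the 81.7th percentile for CX3CR1. In bulk RNA, fewer microglia and less RNA per cell cannot be told apart.

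Genes of the same cells and pathways outside the 9 were read beside them. Of 7 listed microglia-enriched genes 6 were matched, led by OLFML3 at 13.9 ± 6.90 CPM and SALL1, a transcription factor of microglial identity in mice, at 9.57 ± 4.22 CPM. GPR34 was at 5.71 ± 2.37 CPM, and P2RY13, the neighbour of P2RY12 in the genome, at 1.36 ± 0.880 CPM (SD, n = 34). TMEM119 was not matched to an identifier and is not analysed here. Among 12 macrophage and myeloid genes, CTSS led at 36.2 ± 11.3 CPM and MSR1 was lowest at 1.62 ± 1.13 CPM. Markers of macrophages at brain borders and in liver were present at low levels, from 8.03 ± 2.87 CPM for VSIG4 to 0.0754 ± 0.130 CPM for LYVE1, with CD163 at 3.04 ± 2.63 CPM. The 4 matched neutrophil genes summed to 0 to 7.88 CPM and the 8 lymphocyte genes to 2.72 to 12.6 CPM per library.

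Of the ligands and factors upstream of CSF1R, IL34 was at 6.78 ± 3.40 CPM and CSF1 at 4.12 ± 3.16 CPM, and MEF2C, which neurons and muscle also express, was highest at 330.0 ± 126 CPM. RUNX1 was lowest in that list at 2.39 ± 1.72 CPM. Downstream of C1q, C3 was at 31.98 ± 10.6 CPM and C4A at 16.0 ± 11.0 CPM. SERPING1, the inhibitor of the C1 proteases, was the highest matched gene of the complement list at 35.5 ± 10.8 CPM. C3AR1, a receptor of a C3 fragment, was lowest at 0.00443 ± 0.0259 CPM, and 7 of the 17 listed complement genes, C1R and C1S among them, were not matched. CLU, at 1669 ± 352 CPM, and APOE, at 392 ± 80.1 CPM, are lipoprotein genes whose products bind TREM2, and both are abundant in astrocytes. The lowest gene of that list was PIK3CD at 0.517 ± 0.416 CPM. The cleaving and signalling partners of CX3CR1 and P2RY12 ran from GNAI2, a subunit of the inhibitory G protein that both receptors use, at 156 ± 26.4 CPM to ADAM17 at 0.251 ± 0.415 CPM. In the list of genes that rise in activated mouse microglia, APOE was highest and CST7 lowest at 0.111 ± 0.290 CPM (SD, n = 34 throughout).

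**Figure D1:**
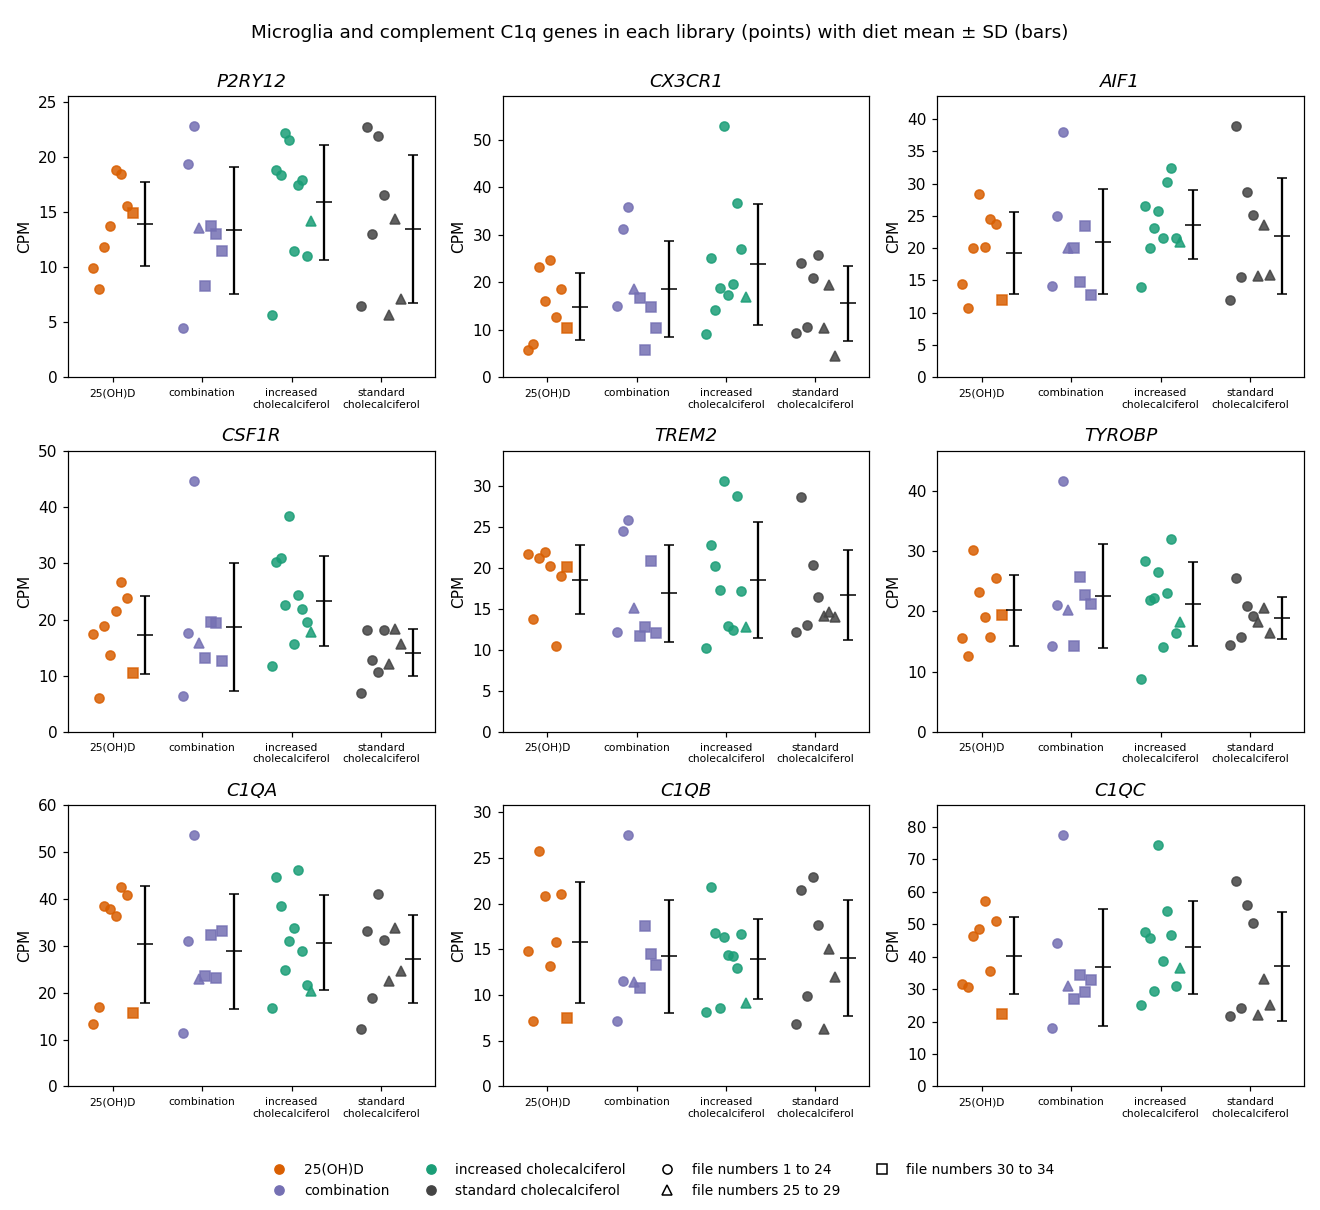
CPM of each gene (vertical axis, 1 panel per gene) in each library (points), by diet, with the diet mean and SD as bars; point shapes give the run of file numbers. The diets overlap in every panel, and combination replicate 3 is the highest point of its diet in all 9, at 44.7 CPM for CSF1R and 77.3 CPM for C1QC.

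Across diets the levels overlapped for all 9 genes. CX3CR1 ran from 5.77 to 24.7 CPM with a median of 14.5 CPM on 25(OH)D, from 5.71 to 35.9 CPM with a median of 15.9 CPM on the combination, and from 9.03 to 52.8 CPM with a median of 19.2 CPM on increased cholecalciferol, against 4.48 to 25.7 CPM with a median of 15.0 CPM on standard cholecalciferol. The highest library, increased cholecalciferol replicate 5 at 52.8 CPM, also held the most TREM2, at 30.6 CPM. P2RY12 ran from 8.05 to 18.8 CPM with a median of 14.4 CPM on 25(OH)D, from 4.48 to 22.8 CPM with a median of 13.3 CPM on the combination, and from 5.69 to 22.2 CPM with a median of 17.7 CPM on increased cholecalciferol, against 5.66 to 22.8 CPM with a median of 13.7 CPM on standard cholecalciferol. The lowest and the highest P2RY12 value of all libraries both came from the combination, in replicates 1 and 3.

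CSF1R had its lowest diet mean on standard and its highest on increased cholecalciferol. It ran from 5.96 to 26.7 CPM with a median of 18.1 CPM on 25(OH)D, from 6.40 to 44.7 CPM with a median of 16.8 CPM on the combination, and from 11.7 to 38.4 CPM with a median of 22.3 CPM on increased cholecalciferol, against 6.84 to 18.3 CPM with a median of 14.3 CPM on standard cholecalciferol. On increased cholecalciferol 7 of the 10 libraries lay above the highest library of standard cholecalciferol. The difference did not pass adjustment (edgeR adjusted p = 0.623), and 7.77% of all tested genes had an unadjusted p below 0.05 in that comparison. AIF1 had diet means of 19.3 ± 6.36, 21.0 ± 8.17 and 23.6 ± 5.33 CPM on 25(OH)D, the combination and increased cholecalciferol, against 21.9 ± 8.98 CPM on standard cholecalciferol.

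The signalling pair TREM2 and TYROBP overlapped between all diets. TREM2 averaged 18.6 ± 4.19 CPM on 25(OH)D, 16.9 ± 5.92 CPM on the combination and 18.5 ± 7.03 CPM on increased cholecalciferol, against 16.7 ± 5.45 CPM on standard cholecalciferol. TYROBP averaged 20.2 ± 5.83, 22.6 ± 8.67 and 21.2 ± 6.97 CPM in the same 3 diets, against 18.9 ± 3.51 CPM on standard cholecalciferol.

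Of the C1q chains, C1QC ran from 22.4 to 57.0 CPM with a median of 40.8 CPM on 25(OH)D, from 17.9 to 77.3 CPM with a median of 31.8 CPM on the combination, and from 25.0 to 74.2 CPM with a median of 42.2 CPM on increased cholecalciferol, against 21.6 to 63.3 CPM with a median of 29.1 CPM on standard cholecalciferol. C1QA averaged 30.3 ± 12.5, 28.9 ± 12.3 and 30.7 ± 10.1 CPM on 25(OH)D, the combination and increased cholecalciferol, against 27.2 ± 9.31 CPM on standard cholecalciferol. C1QB averaged 15.8 ± 6.61, 14.2 ± 6.15 and 13.9 ± 4.37 CPM, against 14.0 ± 6.34 CPM. Within a diet the chains varied up to 4.71-fold between libraries (C1QA on the combination), and the diet means of each chain lay within 1 SD of each other.

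The resident pair was set against the general macrophage genes within each library, as values with no test. P2RY12 and CX3CR1 together made up 16.5 ± 3.42% of the counts of the 9 genes (SD, n = 34). The lowest share was 8.60% in standard cholecalciferol replicate 8 and the highest 23.4% in increased cholecalciferol replicate 5. By diet the share was 15.0 ± 2.80% on 25(OH)D, 16.7 ± 3.52% on the combination and 18.2 ± 3.48% on increased cholecalciferol, against 15.7 ± 3.49% on standard cholecalciferol. The summed level of the pair was 32.8 ± 14.2 CPM (range 11.6 to 74.4 CPM) and that of the 7 general genes 162 ± 50.3 CPM (range 83.3 to 309 CPM). As a log2 ratio, resident over general, the mean was -2.37 ± 0.38. It stood at -2.52 ± 0.32, -2.34 ± 0.38 and -2.19 ± 0.34 on 25(OH)D, the combination and increased cholecalciferol, against -2.46 ± 0.44 on standard cholecalciferol.

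The pair was itself uneven. The log2 ratio of P2RY12 to CX3CR1 was -0.28 ± 0.66 over 34 libraries, from -1.75 in combination replicate 1 to 1.27 in combination replicate 6, where CX3CR1 had 12 counts.

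**Figure D2:**
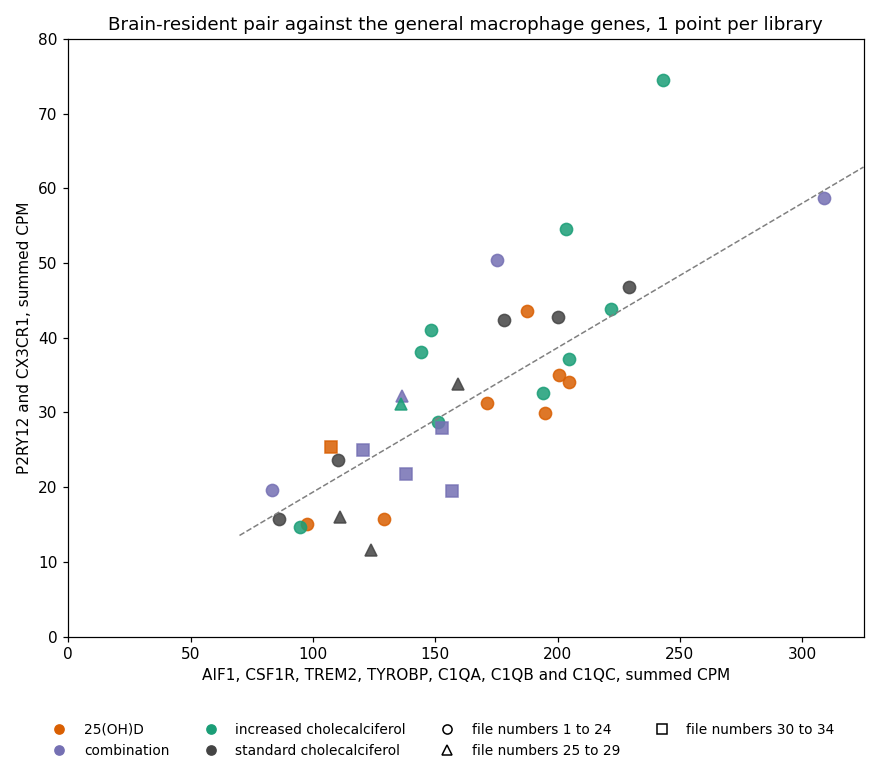
Summed CPM of P2RY12 and CX3CR1 (vertical axis) against summed CPM of the 7 general macrophage genes (horizontal axis), 1 point per library, coloured by diet; the dashed line is the mean log2 ratio of -2.37. Libraries of all 4 diets lie on both sides of the line, and the 2 points farthest to the top and right are increased cholecalciferol replicate 5 at 74.4 CPM of the pair and combination replicate 3 at 309 CPM of the general genes.

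No gene of the 9 passed adjustment between any pair of diets. This used edgeR's quasi-likelihood test over 13974 genes with Benjamini-Hochberg adjustment, a threshold of 0.05, and diet and sex in the model. Of all tested genes 0% passed in each of the 6 comparisons, and DESeq2 and limma-voom also called 0 genes. The intervals set limits in place of calls. The 95% interval of the fold change lay within 2-fold in either direction for 7 to 9 of the 9 genes, depending on the comparison.

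The molecules were compared at the same dose by 25(OH)D against standard cholecalciferol. Of the 9 genes 7 had a log2 fold change above 0 (48.3% of all tested genes), with a median of 0.16 (-0.01 over all tested genes), and 0 had an unadjusted p below 0.05 (3.23% of all tested genes). Values ran from -0.14 (SE 0.26) for AIF1 to 0.39 (SE 0.30) for CSF1R. The chain genes stood at 0.23 (SE 0.30, C1QA), 0.21 (SE 0.31, C1QB) and 0.16 (SE 0.29, C1QC), and CX3CR1 at -0.01 with a 95% interval of -0.79 to 0.76.

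Adding 1000 IU of 25(OH)D to the control feed was examined by the combination against standard cholecalciferol. Here 3 of the 9 genes were above 0 (49.5% of all tested genes), the median was -0.06 (0.00 over all tested genes) and 0 had an unadjusted p below 0.05 (4.34% of all tested genes). CSF1R was highest at 0.33 (SE 0.31) and AIF1 lowest at -0.16 (SE 0.26). Without combination replicate 3, CSF1R stood at 0.05 and C1QC at -0.35, with C1QC at -0.14 (SE 0.29) when it was kept. Without file numbers 30 to 34 CX3CR1 stood at 0.57, against 0.16 (SE 0.38) with them.

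For the dose of cholecalciferol, increased against standard, 8 of the 9 genes were above 0 (50.8% of all tested genes), with a median of 0.11 (0.01 over all tested genes). CSF1R averaged 23.3 ± 8.00 CPM on increased cholecalciferol (SD, n = 10) and 14.1 ± 4.19 CPM on standard cholecalciferol (SD, n = 8). On the log2 scale this was a difference of 0.69 (SE 0.29, 95% interval 0.11 to 1.28, unadjusted p = 0.0219), and CSF1R was the 1 gene of the 9 with an unadjusted p below 0.05 (7.77% of all tested genes). It did not pass adjustment (edgeR adjusted p = 0.623, and 0.456 to 0.940 over the alternatives). CX3CR1 followed at 0.51 (SE 0.36), and the other 7 stood between -0.07 and 0.13.

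When the added 1000 IU was 25(OH)D in place of cholecalciferol, at matched totals, the combination was set against increased cholecalciferol. Of the 9 genes 1, TYROBP at 0.06 (SE 0.21), was above 0 (49.9% of all tested genes), with a median of -0.19 (0.00 over all tested genes) and 0 at an unadjusted p below 0.05 (4.14% of all tested genes). CSF1R was lowest at -0.37 (SE 0.29), followed by CX3CR1 at -0.35 (SE 0.37). In the same comparison 8 of 8 cerebellum genes were above 0 (median 0.59) and 0 of 6 tested forebrain genes were (median -0.42), and the part of brain region in the values of the 9 genes was not tested. When the run of file numbers entered the model, CX3CR1 stood at 0.10 and CSF1R at -0.15.

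Dose and molecule both differed in the remaining pairs. For 25(OH)D against increased cholecalciferol 5 of the 9 genes were above 0 (50.5% of all tested genes), with a median of 0.02 (0.00 over all tested genes) and 0 at an unadjusted p below 0.05 (12% of all tested genes). CX3CR1 was lowest at -0.53 (SE 0.37, 95% interval -1.27 to 0.22) and C1QB highest at 0.28 (SE 0.30). For 25(OH)D against the combination 7 were above 0 (49.3% of all tested genes), with a median of 0.18 (-0.01 over all tested genes) and 0 at an unadjusted p below 0.05 (7.57% of all tested genes). Values ran from -0.17 (SE 0.39) for CX3CR1 to 0.32 (SE 0.32) for C1QB. The 3 comparisons with the control share its 8 libraries, and every diet enters 3 of the 6 comparisons. With libraries scaled by total counts alone, the median of all tested genes moved to -0.12 for 25(OH)D against the combination and to -0.11 for 25(OH)D against increased cholecalciferol, and 11 of the 63 values of the 9 genes, the comparison of the sexes included, changed sign.

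**Figure D3:**
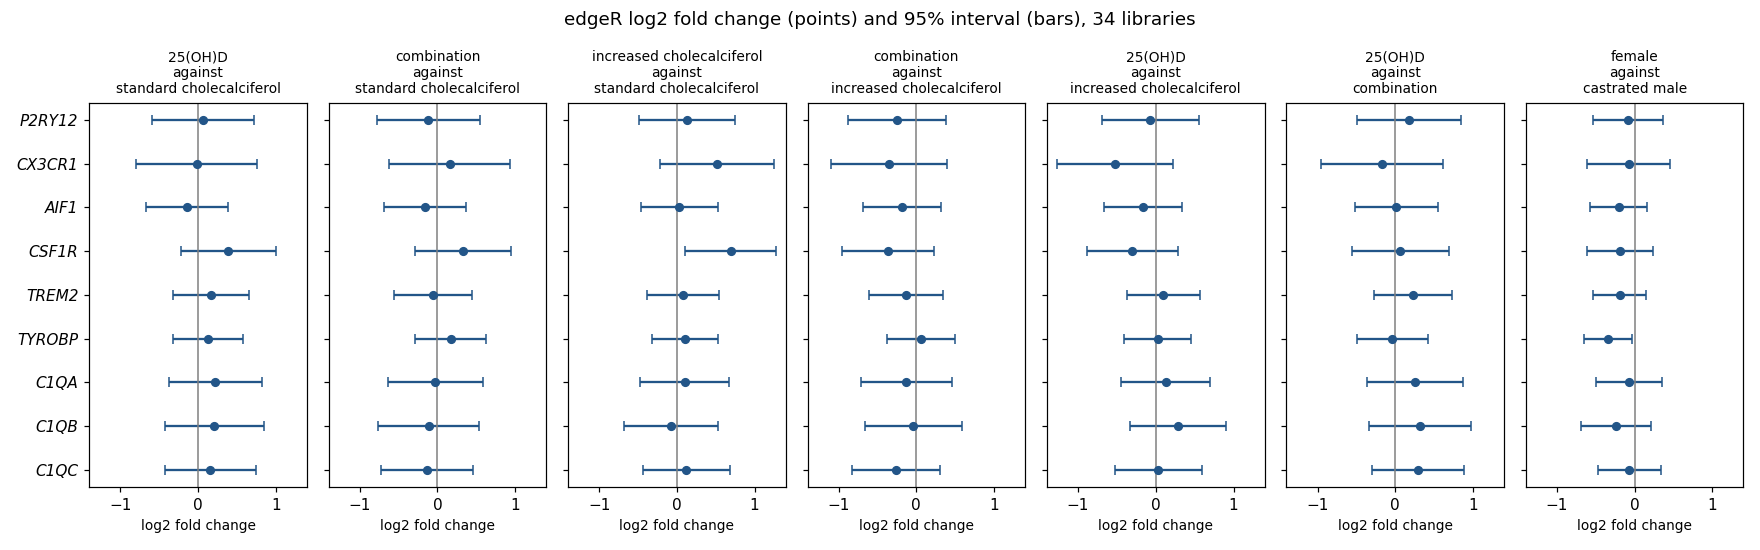
Log2 fold change from edgeR (points) with 95% interval (bars) for the 9 genes (rows) in the 6 comparisons of diets and in the comparison of the sexes (panels), all from 1 model of 34 libraries. The intervals of CSF1R for increased against standard cholecalciferol (0.11 to 1.28) and of TYROBP for female against castrated male (-0.66 to -0.03) are the ones that exclude 0.

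Pathway genes around the 9 were likewise without a call in any comparison. Of the matched list genes that were tested, 0 passed in the complement list (7 tested), the CSF1R ligands and lineage factors (12), the partners of CX3CR1 and P2RY12 (8), the TREM2 and TYROBP signalling genes (11) and the activated microglia genes (9). For increased against standard cholecalciferol (50.8% of all tested genes above 0), all 7 complement genes and all 5 tested microglia-enriched genes had a fold change above 0, with medians of 0.37 and 0.67. The same held for 11 of 12 macrophage and myeloid genes (median 0.41), 5 of 6 border macrophage and Kupffer cell genes (0.33), 9 of 12 CSF1R ligands and lineage factors (0.21), 6 of 8 partners of CX3CR1 and P2RY12 (0.04), 9 of 11 TREM2 and TYROBP signalling genes (0.23) and 8 of 9 activated microglia genes (0.14). For 25(OH)D against increased cholecalciferol (50.5% of all tested genes above 0) 0 of the 7 complement genes and 0 of the 5 microglia-enriched genes were above 0, with medians of -0.27 and -0.37. There 5 of 12 macrophage and myeloid genes (median -0.14), 1 of 6 border macrophage and Kupffer cell genes (-0.08), 3 of 12 CSF1R ligands and lineage factors (-0.07), 2 of 8 partners of CX3CR1 and P2RY12 (-0.08), 3 of 11 TREM2 and TYROBP signalling genes (-0.11) and 4 of 9 activated microglia genes (-0.16) were above 0. These comparisons share the 10 libraries of increased cholecalciferol. The lists also share genes, so their counts are not separate. CD163, MRC1, ITGAM, ITGB2, SPI1, IRF8, SALL1, P2RY13, FCER1G and APOE are each in more than 1 of them. OLFML3, the most abundant of the microglia-enriched genes, was at 0.67 (SE 0.24, unadjusted p = 0.0086, edgeR adjusted p = 0.623) for increased against standard cholecalciferol and was singled out after its values were seen.

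Other cell types varied in the same libraries. The 8 matched oligodendrocyte genes of 10 listed summed to 2674 to 8319 CPM on 25(OH)D, 2787 to 11111 CPM on the combination and 2503 to 14757 CPM on increased cholecalciferol, against 2599 to 9204 CPM on standard cholecalciferol. The 9 matched neuron genes of 10 listed summed to 4703 to 7669, 5681 to 9726 and 5026 to 10774 CPM in the same diets, against 4988 to 9919 CPM on standard cholecalciferol. No matched gene of either type was at 0 in all libraries, and the part of these cells in the diet values was not tested. For increased against standard cholecalciferol 5 of 6 tested astrocyte genes (median 0.30) and 0 of 8 cerebellum genes (median -0.44) were above 0. Skeletal muscle genes were above 0 in all 3 comparisons with the control, with 8 of 8 for 25(OH)D (median 0.57), 8 of 8 for the combination (median 0.77) and 7 of 8 for increased cholecalciferol (median 0.47). Their part in the values of the 9 genes was not tested.

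All 9 genes had values below 0 in females against castrated males, and 0 passed. For all tested genes 51.2% were above 0, 0.0787% (11 genes, all lower in females) passed adjustment and 6.58% had an unadjusted p below 0.05. The median over the 9 was -0.19 (0.00 over all tested genes). In the same comparison 0 of 7 tested oligodendrocyte genes (median -0.39) and 1 of 6 astrocyte genes (median -0.17) were above 0, against 8 of 9 neuron genes (median 0.10) and 8 of 8 cerebellum genes (median 0.40), and their part in the values of the 9 genes was not tested. TYROBP averaged 18.6 ± 4.70 CPM in 18 females and 23.2 ± 7.27 CPM in 16 castrated males (SD). Values ran from 8.81 to 26.6 CPM with a median of 19.2 CPM in females and from 14.2 to 41.7 CPM with a median of 21.7 CPM in castrated males, so the sexes overlapped. Its log2 fold change was -0.35 (SE 0.15, unadjusted p = 0.0307, edgeR adjusted p = 0.734, and 0.301 to 0.979 over the alternatives). File numbers 30 to 34 hold the 4 females that lay above the other females in the sum of the 11 genes. Without these file numbers TYROBP stood at -0.37, and C1QA, C1QC and CX3CR1 at 0.02, 0.04 and 0.05. The interaction of diet and sex called 0 of the 9 genes and 0% of all tested genes (edgeR adjusted p of 0.931 or more for the 9, 4.66% of all tested genes at an unadjusted p below 0.05).

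The 9 genes varied together across libraries. All 36 pairs had a positive correlation of log2 CPM over 34 libraries, with Pearson's r from 0.34 to 0.80 and a median of 0.67, and Spearman's rho from 0.30 to 0.78. Permutation tests (two-sided, 100000 resamples, Benjamini-Hochberg adjusted over the 36 pairs) passed for all 36 by Pearson's r and for 35 by Spearman's rho. On the scale of log2(CPM + 1), 18.3% of all pairs of tested genes had an r at or above the lowest of these 36, and 1.77% reached the median of the 36. The C1q chains were among the closest pairs by r, with 0.79 for C1QA and C1QB, 0.80 for C1QA and C1QC and 0.78 for C1QB and C1QC (permutation, adjusted p = 2.4e-05 each). TREM2 and its adaptor TYROBP reached 0.71 (rho 0.67, permutation, adjusted p = 2.4e-05), whereas C1QA and TREM2 had the lowest r, 0.34 (rho 0.30, permutation, adjusted p = 0.0467 and 0.0883), which was 0.25 without the 2 libraries farthest from the median of C1QA.

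The correlation within the resident pair lay inside the range of those between the pair and the general genes. P2RY12 and CX3CR1 correlated with each other at r = 0.61 (rho 0.67, permutation, adjusted p = 0.00016). The 14 correlations between a resident and a general gene ran from 0.44, for CX3CR1 and C1QB, to 0.79, for P2RY12 and C1QC. AIF1 was the closest partner of CX3CR1 (r = 0.76). Over file numbers 1 to 24 alone (n = 24) the 36 values ran from 0.41 to 0.84. On TMM-scaled CPM (n = 34) they ran from 0.47 to 0.84. The points share the scaling to a library total, and the part of the tissue mixture in these values was not tested.

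**Figure D4:**
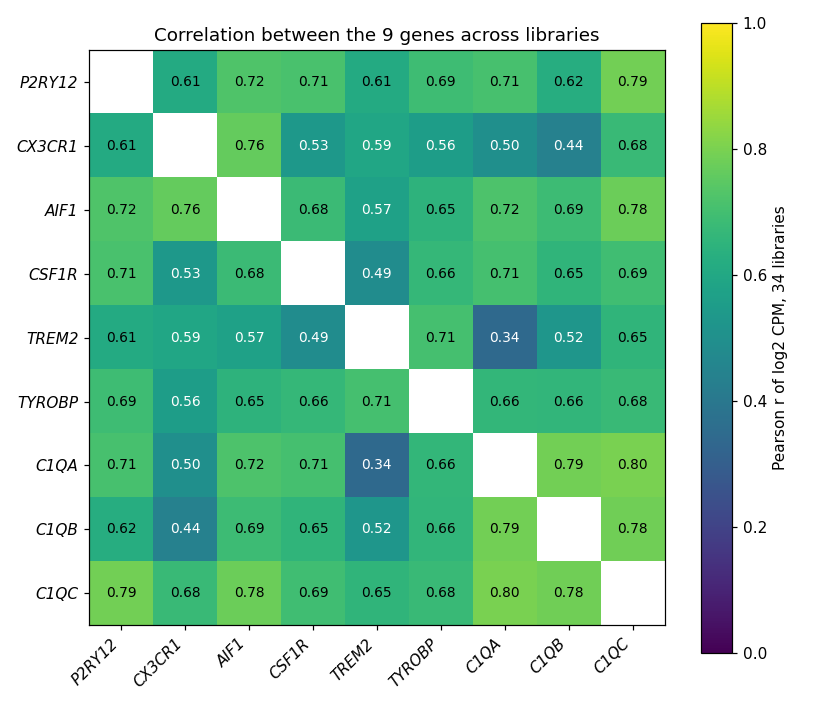
Pearson's r of log2 CPM over 34 libraries for each pair of the 9 genes (rows and columns, colour scale from 0 to 1). All values are positive, from 0.34 for C1QA and TREM2 to 0.80 for C1QA and C1QC.

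Transcripts of brain regions split the libraries, and the correlations were therefore repeated on each side. The mean log2(CPM + 1) of a cerebellum list minus that of a forebrain list left a gap between 1.67 and 2.58. Above the gap lay 14 libraries (3 of 25(OH)D, 6 of the combination, 2 of increased and 3 of standard cholecalciferol) and below it 20 (5, 2, 8 and 5). This put 6 of 8 combination libraries and 2 of 10 of increased cholecalciferol above it. All 5 libraries of file numbers 30 to 34 were above it, 4 of them from the combination. All 9 genes had a lower median above the gap than below it, among them P2RY12 with 9.15 CPM in the 14 libraries and 17.1 CPM in the 20, CX3CR1 with 10.3 and 19.5 CPM, CSF1R with 12.96 and 18.6 CPM, C1QA with 22.7 and 33.9 CPM, and C1QC with 27.97 and 46.0 CPM. The share of all tested genes with a lower median above the gap was not counted. These libraries were split by their own transcripts, so the sides were not tested against each other, and the part of region in the diet values was not tested. All 36 pairs stayed positive on both sides, and the share of all pairs of tested genes above 0 was not counted within a side. Values ran from 0.29 to 0.89 with a median of 0.72 above the gap and from 0.03 to 0.70 with a median of 0.44 below it. The C1q chains stood at 0.76 to 0.83 above and 0.59 to 0.68 below, and P2RY12 with CX3CR1 at 0.46 above and 0.32 below.

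The regional score was related to some of the genes within a side. Of the 9 genes 8 had an r below 0 among the 14 libraries above the gap. Over the 18 relations tested, C1QB (r = -0.75, rho -0.84, permutation, adjusted p = 0.0225 and 0.00576) and P2RY12 (r = -0.70, rho -0.67, permutation, adjusted p = 0.0305 and 0.0403) fell there with a higher cerebellum score. CSF1R (r = -0.60, rho -0.67, permutation, adjusted p = 0.0780 and 0.0403) and C1QC (r = -0.49, rho -0.69, permutation, adjusted p = 0.128 and 0.0403) passed by Spearman's rho. Without the 2 farthest libraries r was -0.68 for C1QB and -0.59 for P2RY12. In the same libraries CX3CR1 stood at 0.02. The score ran from 2.58 to 5.34 in these 14 libraries. The 5 of file numbers 30 to 34 lay toward its lower end, at 2.64 to 3.45. The tests held no term for the run of file numbers, and the part of the run in these relations was not tested. Among the 20 libraries below the gap, TREM2 rose with the score (r = 0.61, rho 0.62, permutation, adjusted p = 0.0225 and 0.0400), with 0.60 without the 2 farthest. CX3CR1 (r = 0.63, rho 0.46, permutation, adjusted p = 0.0225 and 0.120) had an r of 0.28 without the 2 farthest libraries, so that relation rests on those. How many of all tested genes reached such values with the regional score on either side was not counted.

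**Figure D5:**
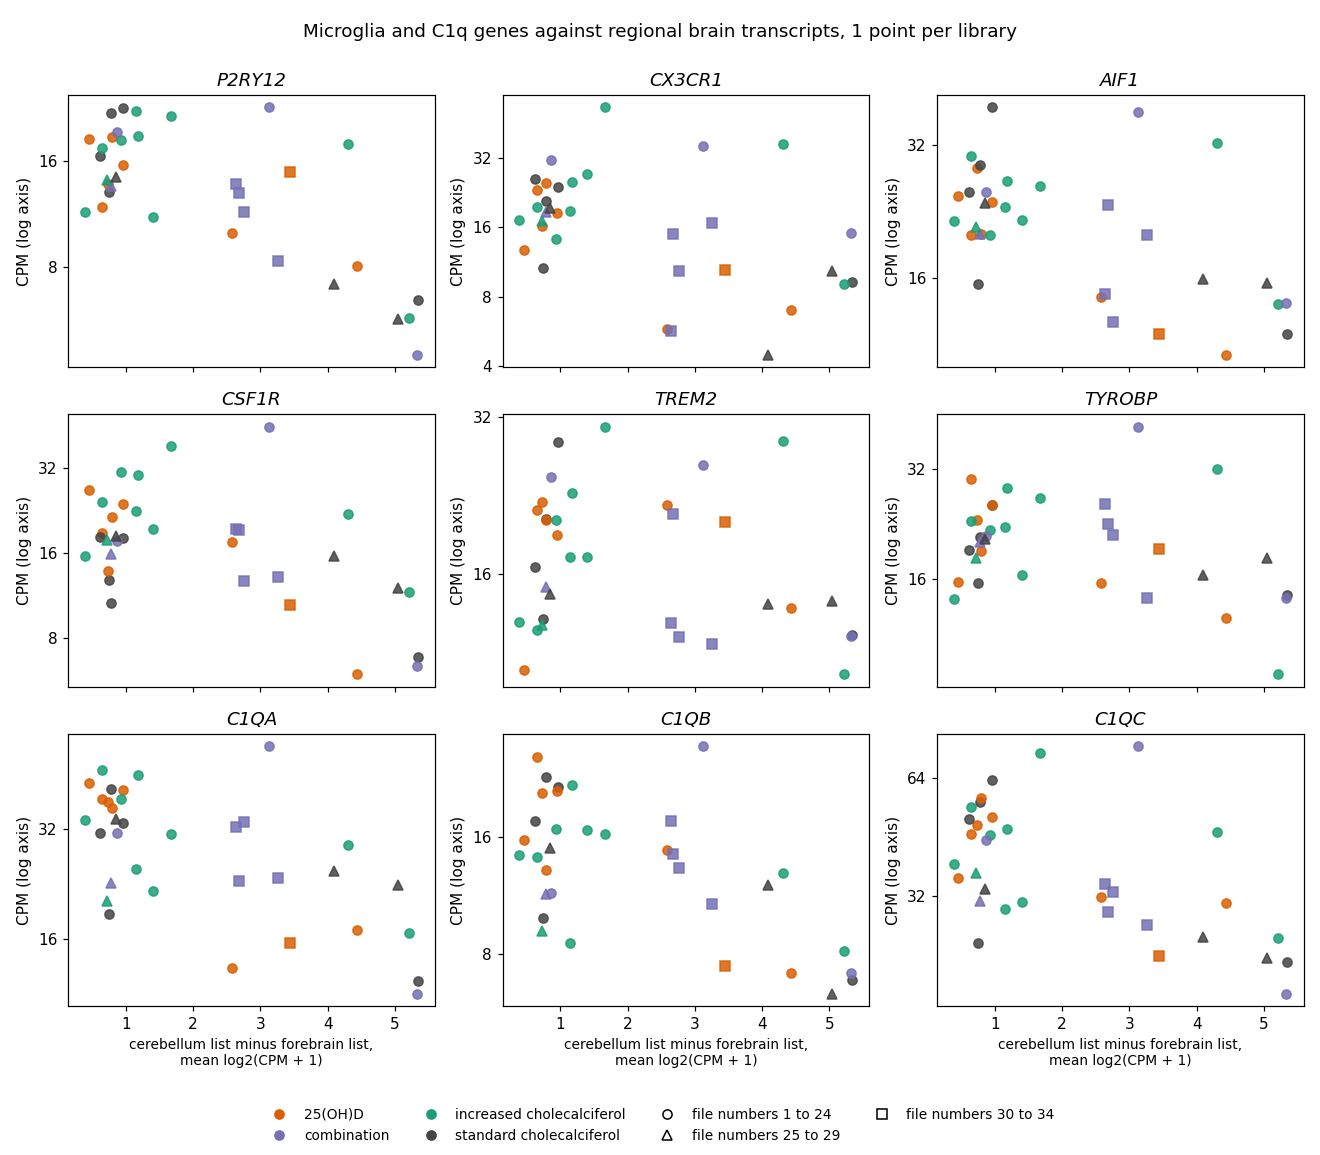
CPM of each gene (vertical log axis, 1 panel per gene) against the mean log2(CPM + 1) of the cerebellum list minus that of the forebrain list (horizontal axis), 1 point per library. No library lies between 1.67 and 2.58 on the horizontal axis, and the lowest P2RY12 value, 4.48 CPM, belongs to a library at the far right.

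Against lists of marker genes, the 9 genes went with glial and myeloid transcripts and against neuronal ones over all 34 libraries. These relations, 99 in all with library measures included, were chosen after values were seen. With 6 other microglia-enriched genes all 9 correlated (r 0.54 to 0.76, rho 0.47 to 0.71, permutation, adjusted p of 0.0028 or less), as they did with the 12 macrophage and myeloid genes (r 0.50 to 0.76, rho 0.46 to 0.79, permutation, adjusted p of 0.00599 or less). With border macrophage and Kupffer cell genes 6 of 9 passed (r 0.22 to 0.54, rho 0.21 to 0.51). CD163 and MRC1 are in both this list and the macrophage and myeloid list. All 9 correlated with oligodendrocyte genes (r 0.47 to 0.76, rho 0.40 to 0.73) and 7 with astrocyte genes (r 0.33 to 0.75, rho 0.27 to 0.76). All 9 were negatively correlated with neuron genes (r -0.69 to -0.49, rho -0.65 to -0.53, permutation, adjusted p of 0.00738 or less). With endothelial genes 4 of 9 passed (r 0.05 to 0.52, 2 by Spearman's rho). Of all tested genes, on the scale of log2(CPM + 1), the smallest r that passed here (0.38) was reached by 11.2% with the microglia-enriched list, 9.55% with the macrophage and myeloid list, 6.87% with the border macrophage list, 9.68% with the oligodendrocyte list, 10.3% with the astrocyte list and 18.2% with the endothelial list, and -0.38 or lower by 7.2% with the neuron list.

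Skeletal muscle genes (r -0.12 to 0.33), liver genes (r -0.19 to 0.11), total counts (r -0.19 to 0.07) and the share of reads outside annotated features (r -0.34 to 0.08) gave 0 relations past the threshold (permutation, adjusted p of 0.0889 or more, with unadjusted p below 0.05 in 0 of 36). Of all tested genes 6.2% reached 0.38 with the skeletal muscle list and 9.18% with the liver list. In file numbers 1 to 24 (n = 24) r with skeletal muscle genes ran from 0.04 to 0.52, highest for CSF1R, and it ran from 0.05 to 0.67 above the regional gap and from -0.44 to 0.63 below it. Within the sides of the regional gap the values diverged for glia. In the 14 libraries above it r ran from 0.54 to 0.88 for oligodendrocyte genes and from 0.68 to 0.89 for microglia-enriched genes, whereas among the 20 libraries below the gap it ran from -0.12 to 0.57 and from -0.10 to 0.54. Macrophage and myeloid genes were positive for all 9 on both sides (r 0.54 to 0.86 above and 0.31 to 0.60 below), and neuron genes negative for all 9 (r -0.88 to -0.35 above and -0.50 to -0.09 below). The difference between the sides was not tested, and shares of all tested genes were not counted within a side.

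The genes most like the 9 across libraries were found by ranking 11125 tested genes with a symbol by Pearson's r with the mean standardised log2 CPM of the 9, as a description. CALCR, which encodes the calcitonin receptor, was first (r = 0.95, 161 ± 61.5 CPM) and ALOX5AP, of leukotriene synthesis in myeloid cells, second (r = 0.91, 25.6 ± 9.71 CPM). RNASE1 (r = 0.88), FOXO1 (0.87), GJA1, the astrocyte gap junction gene (0.87), HTRA1 (0.86), NTSR2 (0.85), EPB41L2 (0.85), SLC25A48 (0.84) and FTL, of ferritin (0.84), followed (n = 34). For the resident pair alone the order was ALOX5AP (0.89), GJA1 (0.89), HTRA1 (0.87), CALCR (0.87) and FTL (0.87). For the 7 general genes it was CALCR (0.94), ALOX5AP (0.89), RNASE1 (0.88), FOXO1 (0.86) and GJA1 (0.84), so CALCR, ALOX5AP and GJA1 were among the 5 most alike of both.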

How the data were processed

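Per the labels' protocols, RNA came from tissue labelled muscle by Trizol extraction and was turned into 3′ libraries with a QuantSeq forward kit. The submitters' processing notes name TopHat, HTSeq, FastQC and DESeq2, and no version, build, annotation or strand setting is stated in the labels. Each deposited file holds the raw counts of 1 library, gene by gene. The 5 HTSeq category lines of each file stayed out of library sizes (16.4 to 29.9% of reads outside annotated features, 11.2 to 20.7% not uniquely aligned, 3.63 to 4.68% ambiguous). The name table matched 15029 of 31907 identifiers. In the RefSeq table of Sscrofa11.1, used for names only, P2RY12 overlaps MED12L, CX3CR1 a long noncoding RNA, and AIF1 both LST1 and NCR3. Reads on an overlap may have been set aside as ambiguous, which would lower the counts of these 3 genes. This was not tested. The other 6 overlap no gene. The C1QA, C1QC and C1QB genes are neighbours there.

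The 9 genes, the marker lists and the tests were chosen with earlier results of these data known. The pathway genes named are the highest and lowest mean of each list and any that passed a test, and a few pathway genes of known role were added after values were seen. Most alike genes are the first 10, or 5 for each part. CPM divide counts by the total gene counts of the library. Group tests used edgeR 4.0.16 under R 4.3.3 (quasi-likelihood, TMM sizes, filter by diet, diet and sex as terms, all 34 libraries), which left 13974 genes, the 9 among them. P-values are two-sided and adjusted by Benjamini-Hochberg over all tested genes. They measure the spread between libraries, counted as individuals in the series. Standard errors come from the F statistic. Correlations used log2 CPM and 100000 permutations (scipy 1.17.1), and likeness used log2 CPM on TMM sizes with a prior count of 2. List scores are means of log2(CPM + 1), and shares of all tested genes past an r were counted on that scale. Scripts were tested on simulated counts. Alternatives were other scaling, no filter, no sex term, a term for runs of file numbers, subsets of libraries, limma-voom 3.58.1, DESeq2 1.42.0 and leaving out each library. No files were identical, so none was merged. The closest of 561 pairs had a chi-square of 2.38 per gene (median 31.5). That pair was 25(OH)D replicate 8 and combination replicate 5, from different diets, with adjacent file numbers 30 and 31. Their totals were 1.34 and 2.04 M gene counts. Whether this pair came from separate animals was not tested. Gene sequences were not used here. Counting error alone is covered by any counting coefficient of variation given.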

Additional observations from a re-analysis of the deposited data

Results flagged for a closer look

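Combination replicate 3 lay far above the other 7 libraries of its diet in 4 of the 48 groups of values looked at. Chance flags about 1 in 20 groups if values are normally distributed, which was not tested for these CPM. The 48 groups also share libraries and genes. The 4 are not separate, since they share the library and the sum contains the other 3 genes. Combination replicate 3 held 44.7 CPM of CSF1R (next library 19.5 CPM), 77.3 CPM of C1QC (next 44.3 CPM), 41.7 CPM of TYROBP (next 25.7 CPM) and a summed 309 CPM of the 7 general macrophage genes (next 175 CPM). Without this library, CSF1R stood at 0.05 and C1QC at -0.35 on the log2 scale for the combination against standard cholecalciferol, and r of C1QA and TREM2 was 0.29 (permutation, adjusted p = 0.0972), with 35 of 36 pairs past the threshold.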

How the results depend on the processing

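No gene of the 9 was called in 2754 values recomputed under alternatives. Opposite signs appeared in 67 of 612 values under other settings and in 95 of 2142 with a library left out, all for uncalled differences. A shift above 1 SE appeared in 12, the largest of 1.23 SE. Without the sex term 0 of 54 values changed sign. Counts of called genes moved in these cases. The combination against increased cholecalciferol gave 1 gene with a term for runs of file numbers, 2 in file numbers 1 to 24 and 1 without numbers 30 to 34. The comparison of 25(OH)D against the combination gave 8 in file numbers 1 to 24 and 2 without numbers 30 to 34. Females against castrated males gave 18 with the run term. Of the 9 genes, 1 passed for endothelial genes on TMM sizes and 2 without combination replicate 3, and 1 passed for skeletal muscle genes in file numbers 1 to 24. These correlation alternatives were chosen after seeing the data, and the cause was not tested. Counts as low as 10 limit precision in file numbers 30 to 34. No paired analysis was possible because replicate numbers follow accession order and pair no animals.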
